A study of Homo sapiens with 6 samples.

Results

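The genes of the mitochondrial ribosomal proteins were taken as all genes with a probeset whose annotated symbol begins with MRPL or MRPS followed by digits. Of 9584 genes named by a probeset with a single symbol, 76 met this rule. One of them, *MRPL20-AS1*, is a noncoding antisense gene and is given apart. The remaining 75 protein genes consist of 48 with an MRPL symbol, named for the large subunit of the ribosome, and 27 with an MRPS symbol, named for the small subunit. RefSeq lists 77 such protein genes, and the remaining ones, *MRPL53* and *MRPS24*, were measured only by probesets shared with another gene.

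All arrays came from HEK293T, an established line of human embryonic kidney origin with the SV40 large T antigen, collected 48 hours after transient transfection. The USF1 group received a plasmid with the *USF1* coding region in an expression vector and the Empty vector group received the vector alone, with 3 Affymetrix arrays per group. The question addressed is which genes differ directly or indirectly after over-expression of the transcription factor USF1, in cells that also hold their own USF1 protein. Whether replicates were transfected separately is not stated in the labels or the methods, so p-values measure only how far these arrays vary, and that variation may be technical.

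Mitochondria translate their own messenger RNAs, which encode core subunits of the respiratory chain, on a ribosome of their own. Its RNAs are encoded by mitochondrial DNA, whereas all of its proteins are encoded by nuclear genes, translated in the cytosol and imported. Many of these proteins have a counterpart in the bacterial ribosome and others exist only in mitochondria. USF1 is a basic helix-loop-helix factor that binds the E-box CACGTG.

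Because the E-box is the sequence that USF1 binds, the members that hold it near their start are shown first. Promoter sequences from 250 bases before to 50 bases after the start (RefSeq, GRCh38.p14) were available for 67 of the 75 members. CACGTG, which reads the same on both strands, was present in 6 of the 67 (8.96%), compared with 7.43% of all 27305 promoters of the same length and 10.8% of the 8066 promoters of measured genes. The members comprised 5 of 41 MRPL and 1 of 26 MRPS genes. All 6 matches lay before the start, at 56 to 245 bases. The windows below run 5′ to 3′ along the gene, with the E-box in capitals.
MRPL22 (chr5:154940885-154940914, plus strand): ttttcggaagccCACGTGctttcggccttt
MRPL36 (chr5:1799876-1799905, minus strand): acgtgggcacgcCACGTGaccccccccccc
MRPL37 (chr1:54199985-54200014, plus strand): tgcgcttcacctCACGTGaggattttccag
MRPL45 (chr17:38297023-38297052, plus strand): cactcccgcgagCACGTGcgcgtcctcgct
MRPL49 (chr11:65121933-65121955, plus strand): cggctCACGTGgggaaggccagg
MRPS18C (chr4:83455867-83455896, plus strand): aatcataagcctCACGTGacctgccgcgta
The extended form TCACGTGA, which contains the shorter motif, was present in *MRPL37* and *MRPS18C*. A match describes the sequence and does not show binding.

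Before the comparison, the arrays themselves were examined. The probeset of *USF1* read 4.37, 5.08 and 5.14 on the Empty vector arrays and 4.76, 4.94 and 4.68 on the USF1 arrays (log2 difference = -0.07, adjusted p-value = 0.836 from limma). It was not called higher on the arrays labelled USF1. At the protein level, the authors report over-expression of USF1 by western blot. Only the coding region was cloned, and the position of the probes on the *USF1* transcript is not known here, so this value does not check the labels. Empty vector replicate 1 stood apart from the rest of its group, with an SD of probeset differences of 0.336 against each of the other two Empty vector arrays, which differed from each other by 0.182. The 5′ minus 3′ value of the actin control probesets, a measure of RNA integrity and labelling, was -1.34, -1.04 and -0.52 on the Empty vector arrays and -0.68 to -0.49 on the USF1 arrays. That of the GAPDH control probesets was -0.58, -0.32 and -0.26 on the Empty vector arrays and -0.35 to -0.32 on the USF1 arrays, so that replicate 1 alone was low on both. The part of RNA quality in the results was not tested. Of 8 genes listed as markers of this cell line 4 were measured, and these read 10.05 (*VIM*), 7.99 (*NEFL*), 10.3 (*NEFM*) and 8.40 (*LIN28B*) on average in the Empty vector group. None of 7 genes listed for leukocytes, fibroblasts, hepatocytes, endothelium or erythroid cells had a single-gene probeset in the table. The authors had removed probesets with mostly absent calls, so a missing gene may have been undetected or may have lacked a suitable probeset. The same holds for *KRT8*, *KRT18*, *PAX2* and *CD24*, the markers of this cell line that were not measured.

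Of the 75 members, 5 fell in the USF1 group (adjusted p-value under 0.05 from limma) and 0 rose, which is 6.67% of the members, beside 14.1% of all named genes called in either direction, 8.89% called lower and 5.19% called higher. At an unadjusted p-value under 0.05 the counts were 21 lower and 2 higher, beside 23.9% and 10.6% of all named genes. The methods' t-test with unequal variances called 0 members after adjustment, beside 0.0104% of all named genes lower and 0% higher. Before adjustment it called 18 members lower and 3 higher, beside 15.8% and 8.31% of all named genes. With each array centred on its median over all probesets, 3 members were called lower and 0 higher, and with the median of all named genes subtracted from each array, 3 were called lower and 2 higher. Among all named genes the balance of calls turned with centring, to 5.90% lower and 7.35% higher. With the all-gene median subtracted, 6.15% of all named genes were called lower and 8.003% higher.

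The members' differences were small and mostly below 0. They ranged from -0.48 to 0.23 on the log2 scale, no member differed by 2-fold, and 65 of 75 (86.7%) were below 0, compared with 63.4% of all named genes. The median difference was -0.149 for the members and -0.079 for all named genes. With each array centred on its median over all probesets 53 members were below 0, and these medians were -0.081 and -0.010. A further quantile normalization gave 58 members below 0 and medians of -0.114 and -0.025. Leaving out Empty vector replicate 1, 58 members (77.3%) were below 0 beside 58.6% of all named genes, and the medians were -0.115 and -0.050. These values are relative to the other genes of an array and do not give the amount of RNA per cell. In bulk RNA a change in all cells and a change in a part of them cannot be told apart.

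**Figure D1:**
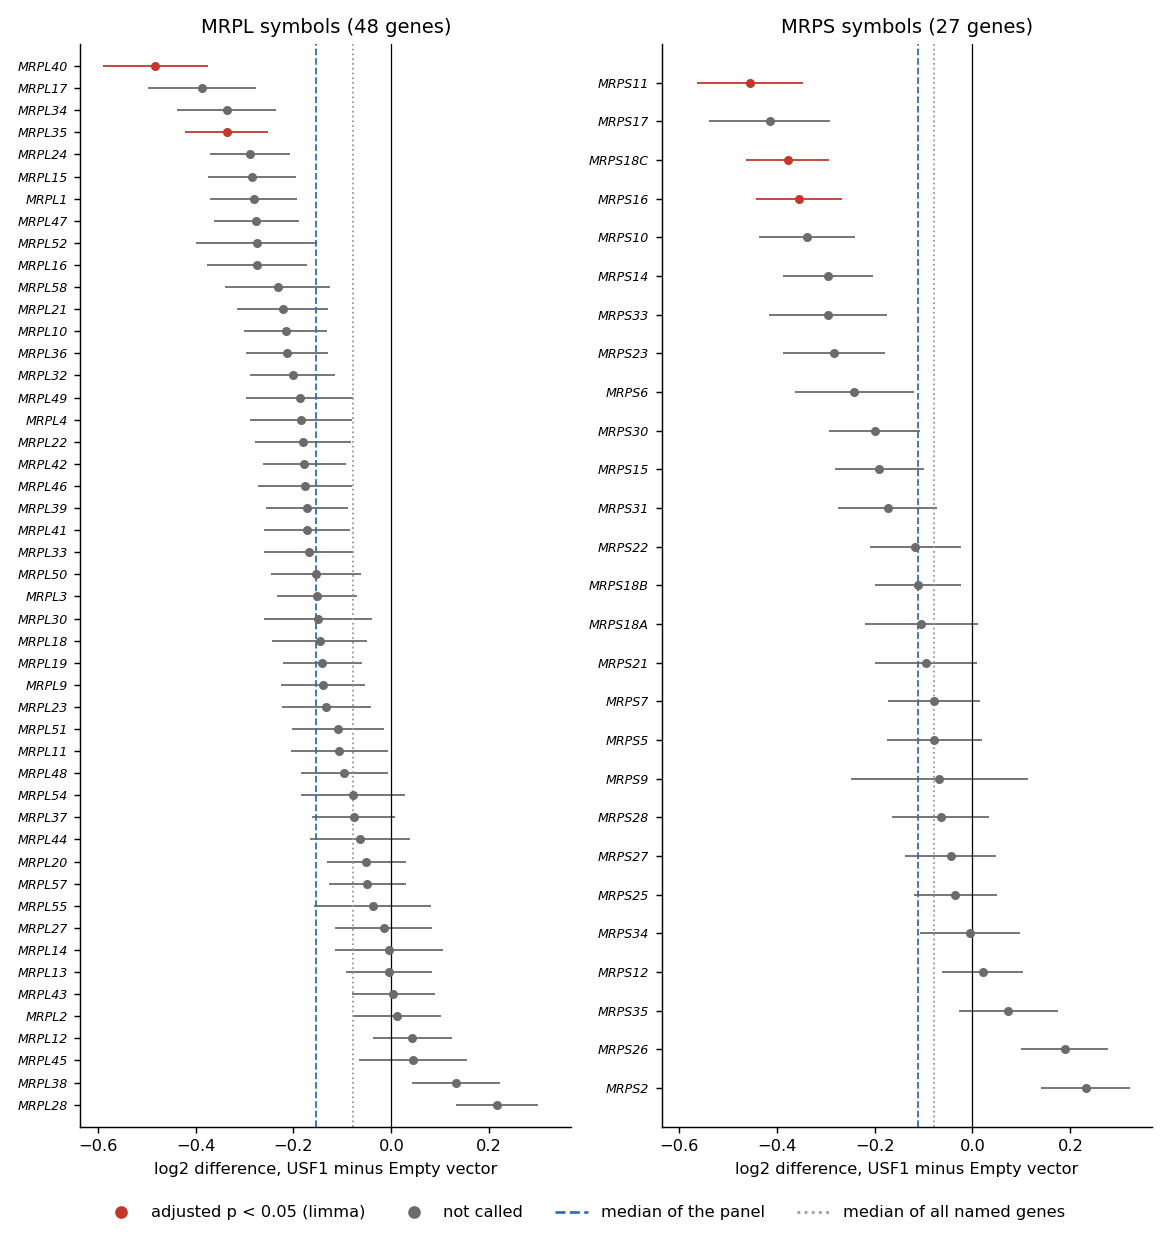
Log2 difference (USF1 minus Empty vector, x axis) of each of the 75 mitochondrial ribosomal protein genes, with the standard error from limma as a bar, for the 48 MRPL symbols (left) and 27 MRPS symbols (right). Red points are the 5 genes called lower. The dashed lines mark the medians of -0.153 and -0.111 and the dotted line the median of all named genes of -0.079.

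Most members had their highest value on 1 array. Empty vector replicate 1 held the highest value for 52 members (69.3%), compared with 40.0% of all named genes, and USF1 replicate 3 held the lowest value for 35 members, while 32.5% of all named genes were lowest there. In 32 members every USF1 array was below every Empty vector array and in 3 every USF1 array was above (27.5% and 12.6% of all named genes, or 40.2% in either direction). Without Empty vector replicate 1 these counts were 34 members below (45.3%) and 3 above. Of the 9584 named genes 30.3% then lay below and 1862 genes above. Leaving out an array can only keep or raise such counts.

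The subunits were then set against each other. Among the MRPL genes 2 of 48 (4.17%) were called lower and 42 (87.5%) were below 0, with a median difference of -0.153. Among the MRPS genes 3 of 27 (11.1%) were called lower and 23 (85.2%) were below 0, with a median of -0.111. Of all named genes 8.89% were called lower and 63.4% were below 0. The interquartile range was -0.218 to -0.061 for the MRPL genes and wider, -0.289 to -0.055, for the MRPS genes. Without Empty vector replicate 1 the medians were -0.117 and -0.097. In that setting 1 MRPL and 2 MRPS genes were called lower, beside 7.35% of all named genes. With centring of the arrays the medians were -0.085 and -0.043.

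The arrays had the same order for both subunits. Relative to each gene's mean over the 6 arrays, the MRPL median was 0.16, 0.02 and 0.03 on Empty vector replicates 1 to 3 and -0.06, -0.08 and -0.10 on USF1 replicates 1 to 3. The MRPS median was 0.20, 0.01 and 0.04 on the Empty vector arrays and -0.02, -0.06 and -0.10 on the USF1 arrays. For both subunits the 3 USF1 arrays lay below the 3 Empty vector arrays. The MRPL minus MRPS median was -0.021 ± 0.015 (SD, n = 3) in USF1 and -0.012 ± 0.020 (SD, n = 3) in Empty vector, a difference of -0.0089 that is smaller than the spread between arrays and turned positive without USF1 replicate 1 (0.012) or Empty vector replicate 2 (0.0053).

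**Figure D2:**
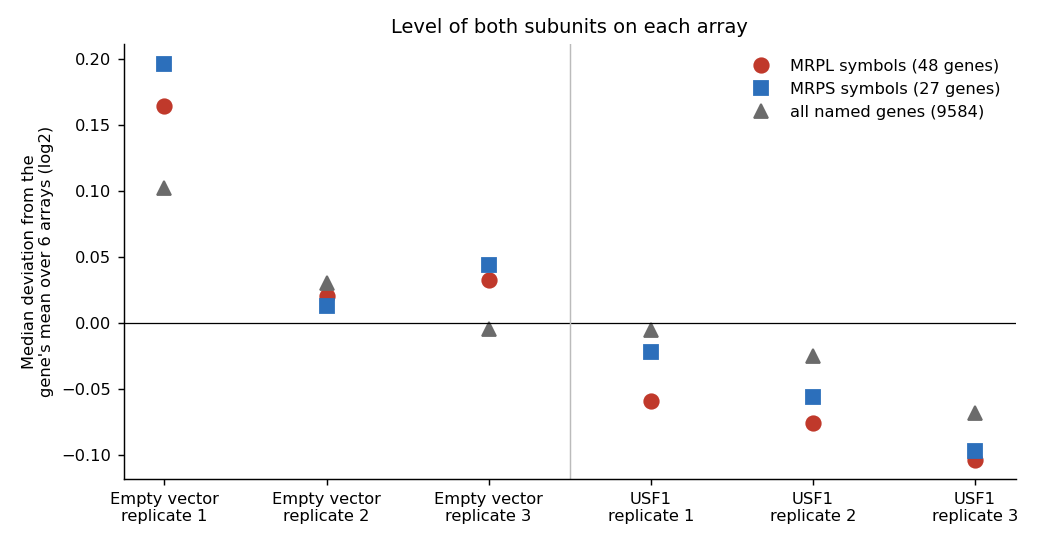
Median deviation of genes from their own mean over 6 arrays (log2, y axis) on each array, for 48 MRPL symbols (circles), 27 MRPS symbols (squares) and 9584 named genes (triangles). Both subunits are highest on Empty vector replicate 1, at 0.16 and 0.20, and below 0 on all 3 USF1 arrays.

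The symbols do not always give the place in the ribosome. MRPS18A and MRPS30 are found in the large subunit despite their names. Placing them there gave 50 large and 25 small subunit genes, with 2 and 3 called lower, beside 8.89% of all named genes. The large minus small difference was then -0.018. *MRPS36* carries the symbol *KGD4* in the current annotation, since its protein belongs to the 2-oxoglutarate dehydrogenase complex, and was not counted as a member (log2 difference = 0.12, adjusted p-value = 0.379).

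Of the genes of the large subunit, *MRPL40* showed the largest fall of any member on its representative probeset, although with the mean over a gene's probesets the small subunit gene *MRPS14* was lower (-0.51 beside -0.48). MRPL40 is a protein of the mitochondrial large subunit that bacteria lack. Its values were 9.38, 9.15 and 9.17 on the Empty vector arrays and 8.71, 8.91 and 8.64 on the USF1 arrays, and the groups did not overlap. The log2 difference was -0.48 (standard error = 0.11, adjusted p-value = 0.0265 from limma), or 0.716 of the Empty vector level. *MRPL35*, which encodes the counterpart of bacterial L35, read 7.98, 7.95 and 7.99 on the Empty vector arrays and 7.56, 7.73 and 7.62 on the USF1 arrays. The Empty vector arrays lay within 0.04 of each other, and every USF1 array was below them. Its log2 difference was -0.34 (standard error = 0.084, adjusted p-value = 0.0379 from limma).

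Among representative probesets of the small subunit the largest fall was that of *MRPS11*, the counterpart of bacterial S11, which lies on the platform of the subunit. Its Empty vector arrays read 8.11, 8.01 and 7.90 and its USF1 arrays 7.54, 7.72 and 7.40, a log2 difference of -0.45 (standard error = 0.11, adjusted p-value = 0.0325 from limma). *MRPS16*, the counterpart of bacterial S16, in which inherited mutations cause a combined respiratory chain deficiency, read 7.49, 7.34 and 7.46 on the Empty vector arrays and 7.14, 7.10 and 7.01 on the USF1 arrays. The groups overlapped for neither gene. The log2 difference of *MRPS16* was -0.35 (standard error = 0.087, adjusted p-value = 0.0361 from limma).

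The third small subunit gene to fall was *MRPS18C*, the called member with the E-box shown above. Human mitochondria have 3 relatives of bacterial S18, and MRPS18C is the one that takes its place in the small subunit. The Empty vector arrays read 7.99, 7.85 and 7.94 and the USF1 arrays 7.54, 7.61 and 7.50, so that the groups did not overlap. The log2 difference was -0.38 (standard error = 0.085, adjusted p-value = 0.0271 from limma). The relatives *MRPS18A* and *MRPS18B* had log2 differences of -0.10 (adjusted p-value = 0.570) and -0.11 (adjusted p-value = 0.423), and the arrays of the groups overlapped for both. Whether the 3 genes differ from each other was not tested.

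Each of the 5 calls depended on single arrays. All were lost when USF1 replicate 1, USF1 replicate 3, Empty vector replicate 2 or Empty vector replicate 3 was left out, where 0 members were called. In these settings 1.76%, 1.00%, 1.98% and 4.99% of all named genes were called lower, beside 8.89% with all arrays. That share was 7.35% without Empty vector replicate 1 and 10.7% without USF1 replicate 2. Without Empty vector replicate 1 *MRPL40* (adjusted p-value = 0.0362), *MRPS11* (0.0475) and *MRPS18C* (0.0421) were called, while *MRPL35* (0.0528) and *MRPS16* (0.0579) were not. Without USF1 replicate 2, 7 members were called lower, *MRPS16* not among them. The differences themselves kept their sign in every case, from -0.56 to -0.41 for *MRPL40*, -0.54 to -0.38 for *MRPS11*, -0.42 to -0.35 for *MRPS18C*, -0.40 to -0.32 for *MRPS16* and -0.38 to -0.30 for *MRPL35*.

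Several further members had differences as large as those called. *MRPS17*, the counterpart of bacterial S17, read 9.14, 9.12 and 8.96 on the Empty vector arrays and 8.59, 8.91 and 8.48 on the USF1 arrays (log2 difference = -0.41, adjusted p-value = 0.0627). Its arrays lay apart, but the USF1 arrays spread over an SD of 0.227. *MRPL17*, a protein at the exit of the peptide tunnel, had a log2 difference of -0.39 (adjusted p-value = 0.0554), and *MRPS10*, the counterpart of bacterial S10, one of -0.34 (adjusted p-value = 0.0566). The USF1 arrays of *MRPL17* read 7.79 to 8.13 and its Empty vector arrays 8.25 to 8.45. Those of *MRPS10* read 7.16 to 7.47 and 7.63 to 7.67. None of these 3 genes passed the threshold in the main comparison. With array weights (adjusted p-value = 0.0169, 0.0206 and 0.0185 from limma) or a trended robust prior (0.0260, 0.0219 and 0.0288), all 3 did.

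At the other end, 10 members were above 0. *MRPS2*, the counterpart of bacterial S2, read 8.67, 8.47 and 8.53 on the Empty vector arrays and 8.84, 8.81 and 8.72 on the USF1 arrays (log2 difference = 0.23, adjusted p-value = 0.126). *MRPL28* had a log2 difference of 0.22 (adjusted p-value = 0.122), with Empty vector arrays of 6.88 to 7.02 and USF1 arrays of 7.14 to 7.21. For *MRPS26*, a small subunit protein without a bacterial counterpart, the difference was 0.19 (adjusted p-value = 0.185). These were the 3 members whose USF1 arrays all lay above the Empty vector arrays, and all 3 passed the methods' t-test before adjustment. *MRPS2* and *MRPL28* were called higher by limma with the median of all named genes subtracted from each array (adjusted p-value = 0.0387 and 0.0405) and with array weights (0.0469 and 0.0488). Of all named genes 8.003% were called higher with that median subtracted and 8.76% with array weights. *MRPL12*, the stalk protein that also binds the mitochondrial RNA polymerase, had a log2 difference of 0.04 (adjusted p-value = 0.756), with arrays of 9.17 to 9.25 in Empty vector and 9.20 to 9.28 in USF1 that overlapped.

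**Figure D3:**
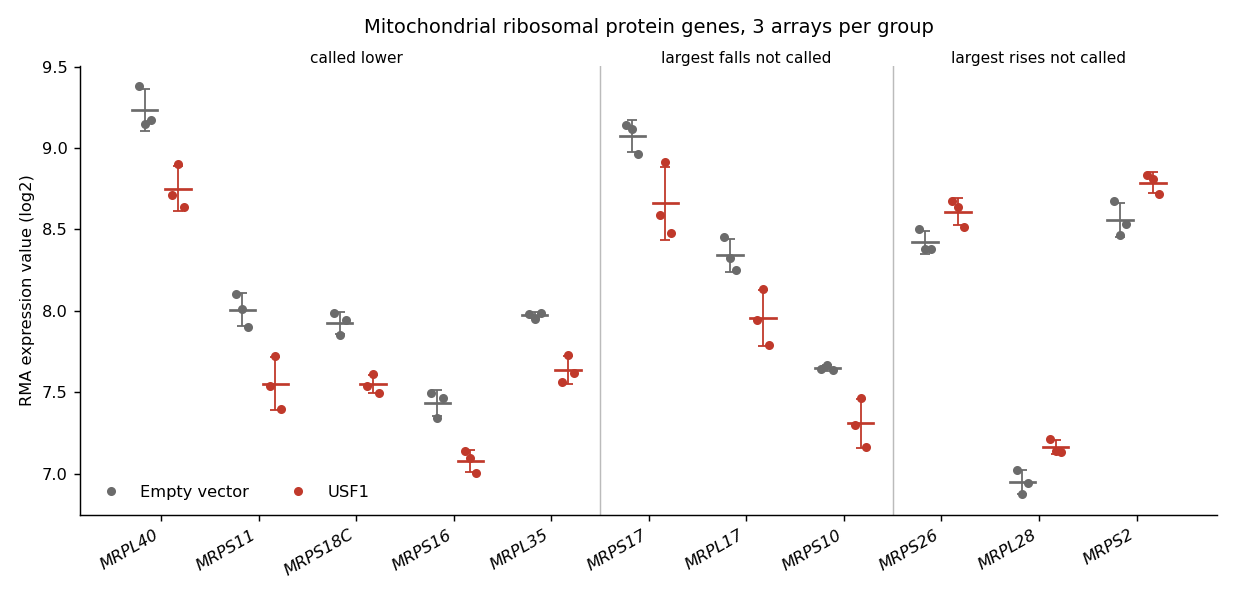
RMA expression value (log2, y axis) on each array for the 5 members called lower, the 3 largest falls not called and the 3 largest rises not called, with Empty vector in grey and USF1 in red. Horizontal lines are group means and bars are SDs (n = 3). The arrays of the 2 groups do not overlap for any of these 11 genes, and values of different genes cannot be compared because their probes differ.

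Members were also split by their number, which follows the bacterial nomenclature up to L36 and S21, a division chosen after the values were seen. Of 44 genes with a bacterial number, 4 were called lower and 39 were below 0, with a median of -0.160. That is 9.09% of them called lower, beside 8.89% of all named genes. Of 31 genes with a higher number, which marks proteins acquired in mitochondria, 1 (*MRPL40*, or 3.23%) was called lower and 26 were below 0, with a median of -0.109. No test was made between them.

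A gene was represented by its probeset with the highest mean, and 22 members had more than 1 probeset. All probesets of a gene had the same sign in 17 of the 22, and the differences of a gene's probesets spanned less than 0.15 in 13. In 6 members the probesets differed in their call. *MRPS14*, the counterpart of bacterial S14, showed the largest such difference. Its representative probeset was at -0.30 (adjusted p-value = 0.0692), while the second read 5.73, 5.58 and 5.46 on the Empty vector arrays and 4.90, 4.83 and 4.86 on the USF1 arrays (log2 difference = -0.72, adjusted p-value = 0.0051). *MRPS31*, a mitochondria-specific small subunit protein, had representative values of 7.48, 7.75 and 7.77 in Empty vector, the first of them from replicate 1. Its second probeset read 7.79, 7.72 and 7.80 there and 7.36 on each USF1 array (log2 difference = -0.41, adjusted p-value = 0.0180). The representative was at -0.17 (adjusted p-value = 0.281).

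For *MRPS18A* the second probeset was called lower (-0.32, adjusted p-value = 0.0432) and the representative was not. *MRPS12*, a protein of the decoding centre, was at 0.02 (adjusted p-value = 0.891) on its representative and 0.37 (adjusted p-value = 0.0453) on the second, the only probeset of any member called higher. For *MRPL35* and *MRPS16* the second probesets gave -0.26 (adjusted p-value = 0.124) and -0.36 (adjusted p-value = 0.0642), the same sign as the called ones. The widest span, 0.476, belonged to *MRPL43*, with a representative at 0.00 and another probeset at -0.47 (adjusted p-value = 0.0616). Counting a gene if any of its probesets was called gave 8 members lower and 1 higher, beside 10.4% and 5.86% of all named genes under the same rule.

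**Figure D4:**
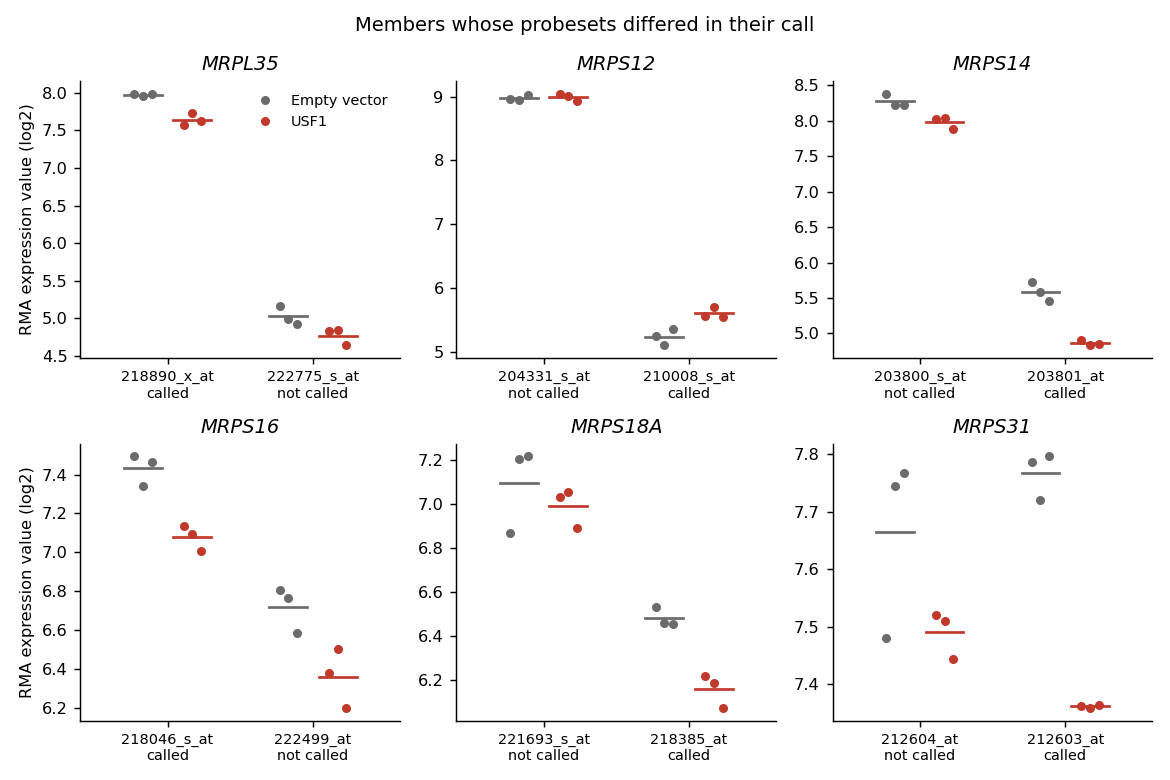
RMA expression value (log2, y axis, a separate scale in each panel) on each array for both probesets of the 6 members whose probesets differed in their call, with the representative probeset on the left of each panel. Lines are group means (n = 3). In *MRPS31* the representative holds 1 low Empty vector array, 7.48, that the second probeset does not show.

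Probesets shared between genes were read as such. The probeset of *MRPL53* and *CCDC142* had a log2 difference of -0.14, that of *MRPS24* and the read-through gene *URGCP-MRPS24* -0.12, and a second probeset of *MRPL51*, shared with *SPTLC1*, -0.10. None was called. *MRPL20-AS1* had a difference of -0.15 (adjusted p-value = 0.335).

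Other motifs near the starts of the members were counted on both strands. AAGATGGCG, the motif of YY1, was present in 12 of 67 members (17.9%), at 13 sites, compared with 1.85% of all promoters and 4.51% of those of measured genes. It lay after the start in 9 of the 13 sites, 6 to 35 bases downstream, and its holders included *MRPS10*, *MRPS18A*, *MRPS18B*, *MRPS30* and *MRPL46*. CCGGAAGT, an ETS motif, was present in 10 members (14.9%, beside 4.44% and 9.79%), and the NRF1 motif in *MRPL17* alone (1.49%, beside 1.36% and 2.62%). None of the 4 called members with a promoter sequence held the YY1, ETS or NRF1 motif, and *MRPS18C* was the one that held the E-box.

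The median difference was -0.184 for the 6 members with CACGTG and -0.146 for the 61 without. The 6 ranged from -0.38 (*MRPS18C*) through -0.21 (*MRPL36*), -0.19 (*MRPL49*), -0.18 (*MRPL22*) and -0.08 (*MRPL37*) to 0.04 (*MRPL45*). For the YY1 motif the medians with and without it were -0.179 and -0.139, and for the ETS motif -0.113 and -0.154. The differences between these medians were not tested.

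Many members have a gene on the other strand that starts nearby. The distance was taken in either direction, so pairs that overlap at their starts were counted too. A start on the other strand within 1000 bases was annotated for 27 of 67 members, and for 19 of them the neighbour was measured, which makes 18 distinct pairs because *MRPS11* and *MRPL46* face each other. In 13 of the 18 pairs (72.2%) both genes had the same sign, compared with 62.0% of 595 such pairs over all measured genes. Of the 19 neighbouring genes 5 were called lower by limma, *MRPS11* among them, and 0 were called higher, beside 8.89% and 5.19% of all named genes. At an adjusted p-value under 0.10 the count called was 9, beside 17.4% of all named genes lower and 8.10% higher. Without USF1 replicate 3 or Empty vector replicate 2 it was 2, and without USF1 replicate 1 it was 3. In these 3 settings 1.00%, 1.98% and 1.76% of all named genes were called lower.

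*MRPS18C* and *HELQ*, a DNA helicase gene, start 175 bases apart, and the E-box printed above spans the annotated start of *HELQ*. *HELQ* fell by 0.67 on the log2 scale (standard error = 0.087, adjusted p-value = 0.00495 from limma), beside -0.38 for *MRPS18C*. In the pair *MRPL37* and *CYB5RL*, 137 bases apart, which also share an E-box, *CYB5RL* was at -0.71 (adjusted p-value = 0.0178) and *MRPL37* at -0.08, which was not called. *EME1*, a subunit of a DNA endonuclease 45 bases from *MRPL27*, was at -0.52 (adjusted p-value = 0.0222), while *MRPL27* was at -0.02. The *HELQ* call held without any single array, whereas that of *EME1* was lost without USF1 replicate 1, USF1 replicate 3 or Empty vector replicate 2, that of *CYB5RL* without Empty vector replicate 2 and that of *APBA3* without USF1 replicate 3. *APBA3*, 990 bases from *MRPL54*, was at -0.64 (adjusted p-value = 0.0111), with *MRPL54* at -0.08. Of the 19 neighbouring genes 3 held CACGTG, beside 10.8% of the promoters of measured genes. Of these 3 genes 2 (*HELQ* and *CYB5RL*) were among the 5 called, and a link between the E-box and the calls was not tested. The third, *PIERCE1*, faces *MRPS2* and had a difference of 0.29 that was not called (adjusted p-value = 0.0859).

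The pair of 2 members, *MRPS11* and *MRPL46*, starts at chr15:88467708 and chr15:88467388, 320 bases apart. *MRPL46* read 7.97, 7.75 and 7.78 on the Empty vector arrays and 7.65, 7.74 and 7.58 on the USF1 arrays. Its arrays did not overlap, although USF1 replicate 2 came within 0.02 of the lowest Empty vector array. Its log2 difference was -0.18 (adjusted p-value = 0.247), beside -0.45 for *MRPS11*. *MRPL40* faces *HIRA*, a histone chaperone gene 812 bases away, which had a difference of 0.69 that did not pass (standard error = 0.27, adjusted p-value = 0.131).

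**Figure D5:**
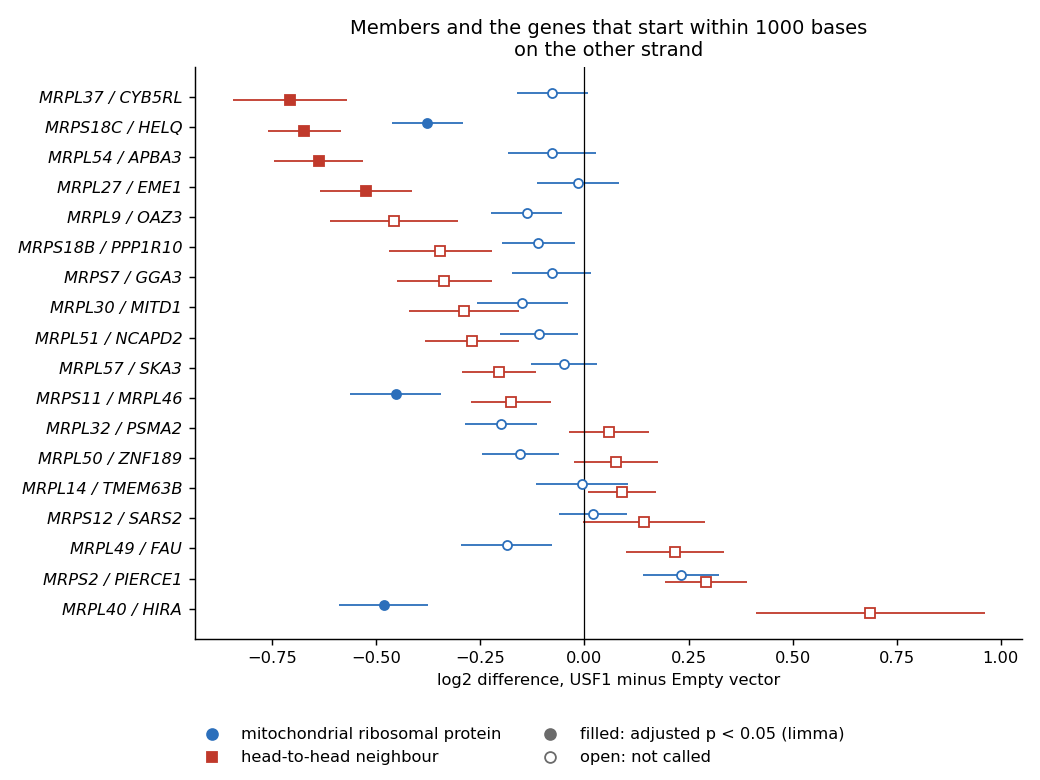
Log2 difference (USF1 minus Empty vector, x axis) with its standard error for the 18 pairs of a mitochondrial ribosomal protein gene (blue circles) and the gene that starts within 1000 bases on the other strand (red squares). Filled symbols are called (adjusted p-value under 0.05 from limma). *MRPS18C* and *HELQ* are the one pair in which both genes are called.

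The other genes of mitochondrial translation were taken from 6 lists, of which 83 genes were measured and 11 called by limma, beside 14.1% of all named genes. The 4 further proteins of the ribosome without an MRP symbol had 0 calls and 0 with an unadjusted p-value under 0.05, with a median of -0.029. Of 25 factors for assembly and rRNA, *YBEY*, an endoribonuclease, was called lower (-0.43, adjusted p-value = 0.0440) and *NOA1*, a GTPase needed for assembly, was called higher. *NOA1* read 7.959, 7.926 and 8.005 on the Empty vector arrays and 8.486, 8.467 and 8.447 on the USF1 arrays. The groups lay far apart relative to their spread (log2 difference = 0.50, standard error = 0.079, adjusted p-value = 0.00919 from limma), and the call held without any single array. The median of this list was -0.147, with 19 of 25 below 0.

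Of 14 translation factors, *GUF1*, the relative of bacterial elongation factor 4, was called lower (-0.42, adjusted p-value = 0.0417), and the list's median was -0.135. Among 12 factors of mitochondrial transcription and RNA, *MTPAP*, the poly(A) polymerase, fell by 0.44 (adjusted p-value = 0.0485) on this probeset, and its other two probesets were called too. *SUPV3L1*, the helicase of RNA decay, rose by 0.34 (adjusted p-value = 0.0312), and the median was -0.194. Of 8 regulators of nuclear genes for mitochondria, *GABPB1*, a subunit of the ETS factor GABP, rose by 0.49 (adjusted p-value = 0.0189), with a median of -0.032 for the list.

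The aminoacyl-tRNA synthetase list had 5 of 20 genes called lower (beside 8.89% of all named genes) and 0 higher, and 17 of 20 below 0, with a median of -0.130. *HARS2*, the histidyl-tRNA synthetase, read 6.83, 6.64 and 6.80 on the Empty vector arrays and 6.12, 6.26 and 5.97 on the USF1 arrays (log2 difference = -0.64, adjusted p-value = 0.00986). *QRSL1* is a subunit of the amidotransferase that completes glutaminyl-tRNA and not a synthetase. It was at -0.60 (adjusted p-value = 0.00825), with both of its probesets called and the call held without any single array. *PARS2* was at -0.53 (adjusted p-value = 0.0215) and *NARS2* at -0.39 (adjusted p-value = 0.0199). *FARS2*, at -0.46 (adjusted p-value = 0.0231), completes the count and was chosen after its values were seen. Without USF1 replicate 1, USF1 replicate 3, Empty vector replicate 2 or Empty vector replicate 3, between 2 and 6 of the 83 genes were called. In these settings 1.00% to 4.99% of all named genes were called lower and 1.60% to 2.85% higher. *QRSL1* and *NOA1* alone were called without each array in turn.

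The cytosolic ribosome served for comparison. Its genes were taken by symbol, RPL or RPS followed by digits, and 35 had a single-gene probeset. Genes named otherwise, such as *RPSA*, were not included. Of the 35, 1 was called lower and 0 higher, beside 8.89% and 5.19% of all named genes. At an unadjusted p-value under 0.05 from limma the counts were 2 and 1, beside 23.9% and 10.6%. Below 0 were 14 (40.0%), beside 63.4% of all named genes, and the median difference was 0.018. The mitochondrial ribosomal proteins had 86.7% below 0 and a median of -0.149 on the same arrays. The values of both families are those without further scaling, and the difference between the families was not tested.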

How the data were processed

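Expression in 3 USF1 and 3 Empty vector samples was taken from the deposited log2 values. The authors made them from Affymetrix arrays with justRMA (background subtraction and quantile normalization, R 2.8.0 per the labels) and an alternate probe definition that masks nonspecific probes, removed probesets with few probes or mostly absent calls, and corrected batches with ComBat. The batches of these arrays were not given in the sources used here. Raw arrays were not used, and the number of arrays limits the precision.

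All 16569 probesets, 33 controls included, were fitted with lmFit and eBayes of limma 3.58.1 (R 4.3.3), USF1 minus Empty vector, without covariates. P-values were adjusted by Benjamini-Hochberg over all probesets, with a threshold of 0.05. Of the probesets 15093 had 1 gene symbol, 570 several and 906 none. Symbols were updated through Entrez identifiers (RefSeq, GRCh38.p14), and the probeset with the highest mean over 6 arrays represented a gene. The procedure was run on simulated data with independent noise on each probeset, which does not cover shifts of a whole array.

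Named are the members called, the 3 largest rises and falls not called, members whose probesets differ in call, the S18 relatives, *MRPS30*, *MRPS36* and *MRPL12*, up to 4 called genes per companion list, and neighbours that are called or face a called member. Other genes are named where they hold a motif or complete a count. The members and lists were chosen with earlier results of these data known. Alternatives were other scalings, a filter on low values, other probeset choices, priors, array weights, tests, blocking by replicate number and omission of single arrays. A looser threshold, the unadjusted t-test and subtraction of the all-gene median were chosen after seeing the data.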

Additional observations from a re-analysis of the deposited data

How the results depend on the processing

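The main comparison called 5 members lower and 0 higher, beside 8.89% of all named genes called lower. The counts lower, each with the share of all named genes called lower, were 3 with array centring (5.90%), 3 with the all-gene median subtracted (6.15%, and 2 members higher, 5 in all), 8 with the 25% lowest probesets removed (10.4%), 12 with the mean of a gene's probesets (12.8%), 3 of 36 without _s_at and _x_at probesets (10.7%), 14 with a trended robust prior (12.3%), 11 with array weights (15.9%, and 2 members higher, 13 in all) and 14 at an adjusted p-value under 0.10 (17.4%). The shares of all named genes called higher were 8.003% with the all-gene median subtracted and 8.76% with array weights. The methods' t-test called 0 after adjustment with unequal (0.0104%) or equal variances (0.470%). Before adjustment, unequal variances gave 21 members, 18 lower and 3 higher, beside 15.8% and 8.31% of all named genes. Equal variances gave 28 members, 25 lower and 3 higher, for which the share of all named genes was not computed. Leaving out single arrays gave 0 to 7 lower and 0 higher, beside 1.00% to 10.7% and 1.60% to 6.35% of all named genes. The same shares apply to the companion and neighbour counts without single arrays given below. The MRPL median was -0.085 with centring, -0.078 with the all-gene median subtracted and -0.183 to -0.117 without single arrays, and the MRPS median -0.043, -0.036 and -0.156 to -0.097. The MRPL minus MRPS value was -0.023 to 0.012 without single arrays, and array weights gave no value for it. In the companion lists, where 11 of 83 genes were called, the count was 20 with array weights, 0 and 2 with the adjusted t-tests, 19 with the unadjusted one, 18 at 0.10 and 2 to 11 without single arrays. Among the neighbours, with 5 of 19 called, it was 3 of the 13 left by the filter, 3 of the 8 left without _s_at and _x_at probesets, 0 and 1 with the adjusted t-tests, 9 at 0.10 and 2 to 6 without single arrays. Over 34 named genes and 627 alternatives, 482 kept direction and side of the threshold, 109 lost and 35 gained a call, and *MRPS12* ranged from -0.0034 (without USF1 replicate 1) to 0.052 without single arrays. The cause of these changes was not tested.

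Replicate numbers do not pair the samples by any source. Deviations of same-numbered arrays correlated by 0.096, 0.246 and 0.129, each array correlating best with its own number, a hint from the data only, and with the replicate block 10 members were called lower instead of 5, while the share of all named genes called lower went from 8.89% to 13.5%.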
